A study of Mus musculus with 9 samples.

Results

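The Phf11 cluster is a run of related genes on mouse chromosome 14 (Phf11a, Phf11b, Phf11c and Phf11d) that lies beside Setdb2. These 5 genes were chosen by symbol and position with their levels on the present arrays known, so those levels are given as a description, without a test. Of the 5 genes, 4 had a probe set carrying only their own symbol, out of 19752 genes with such a probe set. Phf11b was matched by no probe set through its symbol, its Entrez identifier or its RefSeq transcripts, and its level was not analysed here. Each of the 4 measured genes had 1 probe set, so no choice between probe sets was needed. That of Setdb2 was matched through its symbol and Entrez identifier but not through its RefSeq transcripts.

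Expression was measured on 9 Affymetrix arrays in macrophages of the peritoneal cavity of male C57BL/6 mice aged 6 weeks. Mice had received 10000 U of recombinant interferon alpha (IFNa, type I, n = 4) or 8000 U of recombinant interferon gamma (IFNg, type II, n = 2) under the skin 2 h before collection, or no treatment (n = 3). The marker label of treated samples is F4/80+ ICAM2+ and that of untreated samples F4/80+, whereas the series description gives F4/80 and ICAM for all cells. No group injected with vehicle was included, and the labels do not say whether each array came from a separate mouse, so the errors measure only the spread between these arrays. In such sorted samples, more RNA per cell and more expressing cells cannot be told apart.

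Setdb2 encodes an enzyme with a SET domain that methylates lysine 9 of histone H3, a mark of silenced chromatin. In macrophages it is known as an interferon-induced gene whose product has been described as a repressor of inflammatory genes such as the neutrophil chemoattractant Cxcl1. The Phf11 genes encode proteins with a PHD finger, a small zinc-binding module found in many proteins that read histone tails. Human PHF11 also lies next to SETDB2, has been linked to allergic disease and acts in the transcription of T cell cytokines. Type I interferon acts on many genes through the ISGF3 complex, which binds the interferon-stimulated response element (ISRE), and type II interferon largely through the GAS element.

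In the RefSeq gene order of GRCm38.p6 the genes follow each other as Phf11 (a pseudogene), Phf11a, Phf11b, Phf11d, Phf11c, Gm45935, Setdb2 and Cab39l. Gm45935, which carries the synonym Setdb2-phf11c, is annotated across both Phf11c and Setdb2. The platform table listed 2 accessions, EU155100 and EU155101, under both the Phf11c and the Setdb2 probe set. No accession was shared between any other pair of measured members. The signals of Phf11c and Setdb2 may therefore come in part from the same transcripts and are not independent readings. Near-identical copies in the cluster, such as Phf11a and Phf11b, may likewise share signal.

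The start regions of the 5 genes are printed because they show which copies carry the letters of an interferon-response motif. Each window, taken from the RefSeq promoter table of GRCm38.p6, holds 80 bases before the annotated start and the first 20 from it, read 5′ to 3′ on the minus strand, on which all 5 genes lie. Capitals mark matches to the motifs named in the next paragraph. The windows are chr14:59297503-59297602 for Phf11a, chr14:59341311-59341410 for Phf11b, chr14:59365471-59365570 for Phf11d, chr14:59393493-59393592 for Phf11c and chr14:59440861-59440960 for Setdb2.
Phf11a: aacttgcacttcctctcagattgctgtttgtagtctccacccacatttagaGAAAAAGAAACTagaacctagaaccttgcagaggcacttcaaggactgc
Phf11b: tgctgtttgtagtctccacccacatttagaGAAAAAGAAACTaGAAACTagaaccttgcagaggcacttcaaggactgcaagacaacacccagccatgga
Phf11d: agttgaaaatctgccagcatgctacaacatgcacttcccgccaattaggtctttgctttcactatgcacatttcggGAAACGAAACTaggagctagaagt
Phf11c: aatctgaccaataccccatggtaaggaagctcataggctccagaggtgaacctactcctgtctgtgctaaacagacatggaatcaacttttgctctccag
Setdb2: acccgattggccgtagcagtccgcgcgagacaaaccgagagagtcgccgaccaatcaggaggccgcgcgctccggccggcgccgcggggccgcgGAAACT

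Motifs were searched on both strands over the whole table entry of 300 bases, 250 before the start and 50 from it. The ISRE core (GAAA, any 2 bases, then GAAACT) was found in Phf11a, at bases -29 to -18 counted from the start, and in Phf11b, at -50 to -39. It occurred in 0.271% of all 32851 promoters of this length (89 promoters). Both matches read GAAAAAGAAACT and contain a shorter element (GAAA, any 2 bases, then GAAA), found in 3.44% of promoters, and GAAACT, found in 15.8%. In Phf11d the aligned stretch read GAAACGAAACT, so that the GAAA units lay 1 base apart rather than 2. The motif GAAANGAAA, searched after this was seen, matched there at -4 to 5 and occurred in 3.17% of promoters. Further GAAACT matches lay in Phf11b at -37 to -32 and in Phf11d at 36 to 41 and 43 to 48, those of Phf11d beyond the printed window. GAAACT alone was present in Setdb2 at bases 15 to 20 of the transcript. None of these motifs was found in the Phf11c window, and the GAS letters TTCNNNGAA, present in 8.3% of all promoters, were in none of the 5. These are letter matches in short windows around an annotated start, not measured binding.

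The entries of Phf11a and Phf11b were 98.2% identical over 279 aligned bases (274 identical), and those of Phf11a and Phf11d 70.3% identical over 246. Setdb2 differed in base composition. Its entry had 66.3% G and C with 29 CG pairs, against 43.3% to 49.0% and 0 to 3 CG pairs in the Phf11 genes. It overlapped by 182 bases with an entry of Cab39l, which is read from the opposite strand, so these neighbours share a start region that points both ways.

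Among the arrays, medians of intensity ranged from 162.2 to 178.3. In IFNa replicate 4 and untreated replicate 1 the log2 values had a narrow spread, with 2.16 and 2.27 between the quartiles against 2.68 to 3.03 on the other arrays. Member differences are therefore also given without these 2 arrays. Adgre1, which encodes F4/80, ranged from 7782 to 9125 over the 9 arrays, and Icam2 from 2489 to 3873. All member values lay above the 5th percentile of every array (23.6 to 33.9), the lowest being 154.9. Phf11c in untreated replicates 1 and 2 (154.9 and 155.8) lay below the medians of those arrays (178.3 and 173.7). Of 50 measured markers of other cells (granulocytes, mast cells, lymphocytes of the B, T and NK lineages, and small macrophages with monocytes and dendritic cells), limma called 0 in each comparison at a Benjamini-Hochberg adjusted p under 0.05, the threshold used throughout. At an unadjusted p under 0.05 there were 2 for IFNa against untreated, 4 for IFNg against untreated and 1 for IFNa against IFNg. The summed intensity of the 11 granulocyte markers was 3425 to 3569 in untreated arrays, above the 2551 to 2838 after IFNa and the 2664 to 2943 after IFNg. Csf3r, the G-CSF receptor gene, differed most in this list after IFNa, by -0.51 ± 0.13 (adjusted p = 0.0825, limma). The B cell list had the lowest median after IFNg, -0.32 over 11 genes. All 11 B cell, all 11 T and NK cell and all 8 mast cell markers had a higher mean after IFNa than after IFNg, with medians of 0.40, 0.09 and 0.20 on the log2 scale. In this comparison the median of all genes was 0.03, and it was -0.15 without the dimmest 50% of genes. Dimmer genes thus lay higher after IFNa as a class, and the marker values were not adjusted for this. The summed B cell markers were at 2256 to 4397 after IFNa and 2397 to 2522 after IFNg, and the summed mast cell markers at 1476 to 3145 and 1513 to 1598, with overlap in both. Of 11 markers of large peritoneal macrophages, Gata6, which maintains their identity, fell by 1.05 after IFNa and by 1.16 after IFNg on the log2 scale, where 0.856% and 0.111% of all genes were called lower. These shares stand for 169 and 22 genes, which became 27 and 2 without untreated replicate 2 and 638 and 145 without the narrow arrays. Mertk, a receptor for apoptotic cells, rose by 0.62 after IFNa. The Gata6 calls ended without untreated replicate 2, and that after IFNg also without untreated replicate 3 or either IFNg array and in a fit of only the groups compared (adjusted p up to 0.337, limma). The Mertk call ended without any 1 array other than untreated replicate 3 and IFNa replicate 4 (up to 0.139), under median centring (0.051), in a fit of only the groups compared (0.0634) and with a replicate block by title number (0.0573). The part of these marker changes in the member values was not tested.

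Setdb2, the histone methyltransferase gene, was at an RMA intensity of 230.1, 237.3 and 277.6 in the 3 untreated arrays. It was at 2382, 1783, 1963 and 1251 in IFNa replicates 1 to 4. In the 2 IFNg arrays it was at 704.8 and 632.6. The 3 groups did not overlap, and every IFNa array lay above both IFNg arrays. On the log2 scale the level after IFNa was 2.86 ± 0.20 (SE, n = 4 against 3) above untreated, or 7.26-fold. After IFNg it was 1.43 ± 0.24 above (n = 2 against 3), or 2.70-fold. Setdb2 varied most in the IFNa group, where the highest array was 1.90 times the lowest, against 1.21 times among untreated arrays. Its lowest IFNa value came from replicate 4, an array of narrow range. Without the 2 narrow arrays the differences were 2.98 after IFNa and 1.38 after IFNg.

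Phf11c, the Phf11 copy next to Setdb2, was at 154.9, 155.8 and 204.2 in untreated arrays. After IFNa it was at 1508, 1264, 1458 and 1013, and after IFNg at 498.4 and 385.4. As for Setdb2, the groups did not overlap, IFNg lay between the other groups and IFNa replicate 4 was the lowest of its group. Phf11c had the largest difference of the 4 genes after IFNa, 2.93 ± 0.18 or 7.61-fold, and the smallest after IFNg, 1.37 ± 0.21 or 2.58-fold. Both lay within 1 standard error of those of Setdb2. Without the narrow arrays they were 2.98 and 1.30.

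Phf11d was at 256.9, 342.3 and 497.2 in untreated arrays. After IFNa it was at 2289, 2257, 2257 and 2496, and after IFNg at 1111 and 930.8. Again no groups overlapped, but here the spread lay in the untreated arrays, whose highest was 1.94 times the lowest, while the IFNa arrays lay within 1.11 times of each other. The difference from untreated was 2.72 ± 0.20 after IFNa (6.59-fold) and 1.53 ± 0.24 after IFNg (2.89-fold). Without the narrow arrays it was 2.46 and 1.30.

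Phf11a, at the other end of the run from Setdb2, was at 252.0, 368.9 and 424.3 in untreated arrays. After IFNa it was at 1712, 1839, 1923 and 1994, and after IFNg at 873.6 and 898.5. Its groups did not overlap, and its IFNg arrays differed by 1.03 times. Phf11a had the smallest difference after IFNa, 2.45 ± 0.17 or 5.48-fold, and a difference of 1.38 ± 0.20 or 2.60-fold after IFNg. Without the narrow arrays these were 2.20 and 1.16. Of these arrays, untreated replicate 1 held its lowest untreated value and IFNa replicate 4 its highest IFNa value.

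**Figure D1:**
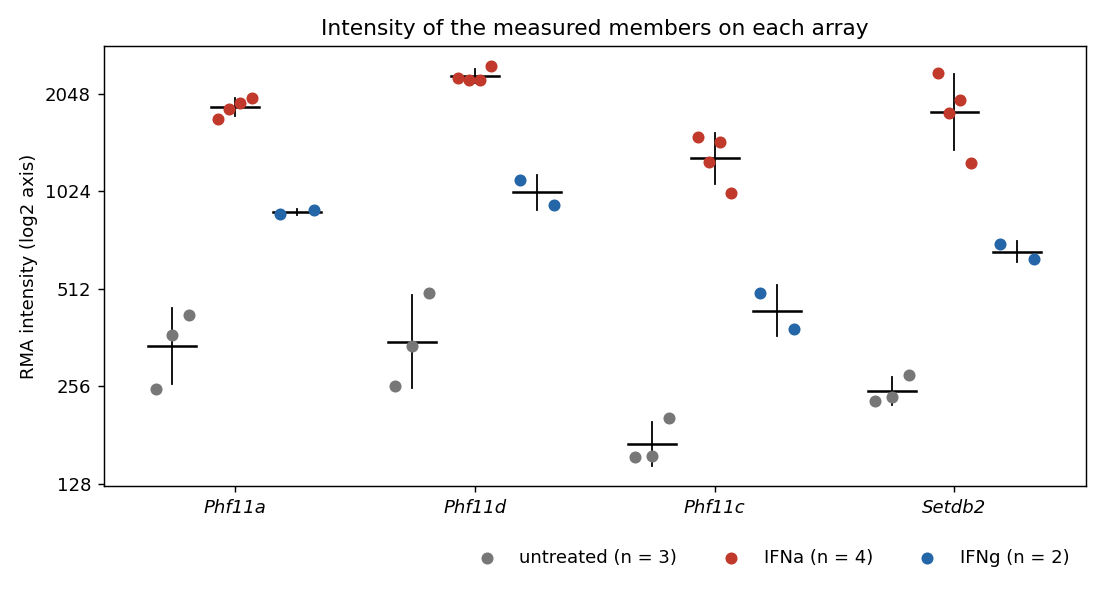
RMA intensity (log2 axis) of the 4 measured genes on each of the 9 arrays, 1 point per array, with the mean of the log2 values (horizontal line) and 1 SD (vertical line) of untreated (n = 3), IFNa (n = 4) and IFNg (n = 2) arrays. In each gene untreated is lowest, IFNg intermediate and IFNa highest, with no overlap; Setdb2 spreads most among IFNa arrays and Phf11d most among untreated arrays.

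The 4 genes thus shared the order untreated, IFNg, IFNa in every array. How many of all genes had groups without overlap was not counted, so nothing is read from this order. In IFNa against untreated the 4 genes ranked 36th (Phf11c), 43rd (Setdb2), 50th (Phf11d) and 68th (Phf11a) from the highest of 19752 differences. In IFNg against untreated they ranked between 119th and 165th. Their median difference was 2.79 after IFNa and 1.41 after IFNg, where the median of all genes was -0.02 and -0.06. These comparisons share the untreated arrays.

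The level after IFNa lay above that after IFNg by 1.56 ± 0.20 in Phf11c (2.96-fold), 1.43 ± 0.22 in Setdb2 (2.69-fold), 1.19 ± 0.22 in Phf11d (2.29-fold) and 1.07 ± 0.19 in Phf11a (2.10-fold). Phf11c and Setdb2 had the larger gaps, and adjacent values in this order lay about 1 standard error apart or closer. Without the narrow arrays the gaps were 1.68, 1.60, 1.16 and 1.04. Measured on the log2 scale, the difference after IFNg was 46.6% of that after IFNa in Phf11c, 50.1% in Setdb2, 56.2% in Phf11d and 56.2% in Phf11a. The doses of the interferons differed in units and in kind, so these shares describe the injections used.

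Over all genes limma called 1.79% higher for IFNa against untreated (354 genes), 1.24% for IFNg against untreated (245) and 0.44% for IFNa against IFNg (87). Since the levels of the 4 members were known when they were chosen, their calls are not given and nothing is read from these shares. Leaving out IFNg replicate 1 or 2 brought the genes called higher to 79 and 90 for IFNg against untreated and to 21 and 24 for IFNa against IFNg. In the 4 members, the difference with any 1 array left out ranged from 2.24 to 3.06 after IFNa, from 1.16 to 1.78 after IFNg and from 1.04 to 1.75 between the interferons.

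**Figure D2:**
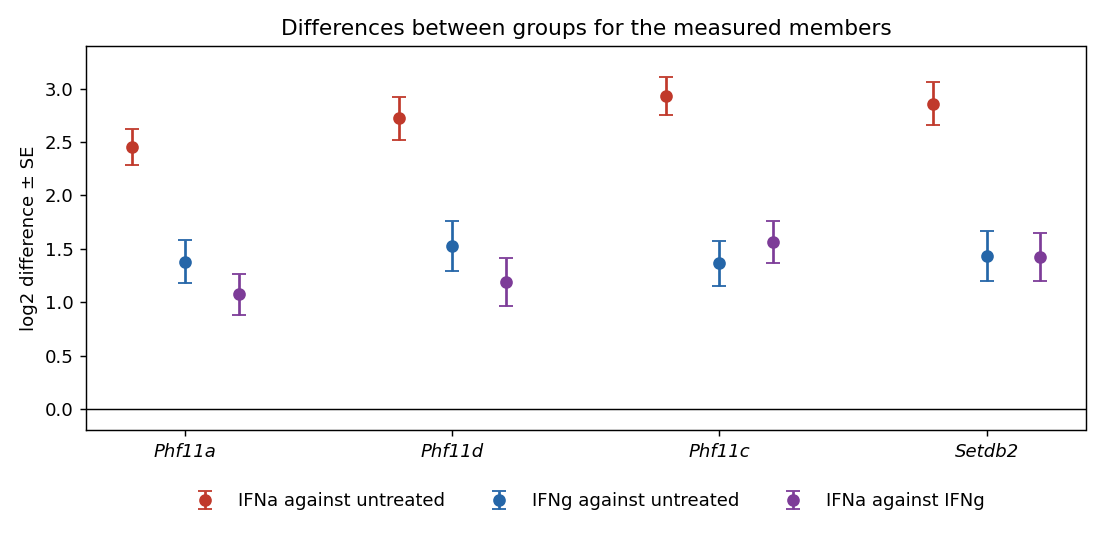
Log2 differences with standard errors from the limma fit, for the 4 measured genes in the 3 comparisons. After IFNa the differences lie between 2.45 and 2.93, after IFNg between 1.37 and 1.53, and the gap between the interferons is larger in Phf11c and Setdb2 (1.56 and 1.43) than in Phf11d and Phf11a (1.19 and 1.07).

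With all 9 arrays included, the genes deviated within groups in pairs. Taken as deviations from the group means over the 9 arrays, Phf11c and Setdb2 correlated at r = 0.89 and Phf11a and Phf11d at r = 0.88. Across these pairs r ranged from -0.02 (Phf11a and Setdb2) to 0.45 (Phf11d and Phf11c). IFNa replicate 4 deviated from its group mean by -0.35 in Phf11c and -0.52 in Setdb2, but by 0.10 in both Phf11a and Phf11d. Untreated replicate 1 deviated by -0.43 in Phf11a and -0.46 in Phf11d, against -0.14 in Phf11c and -0.10 in Setdb2. Without these 2 arrays, r was 0.80 for Phf11c with Setdb2 and 0.60 for Phf11a with Phf11d, but also 0.86 for Phf11d with Phf11c, so the division into pairs rests on the narrow arrays. These values describe few arrays, which may share their normalization, and Phf11c and Setdb2 share listed transcripts.

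**Figure D3:**
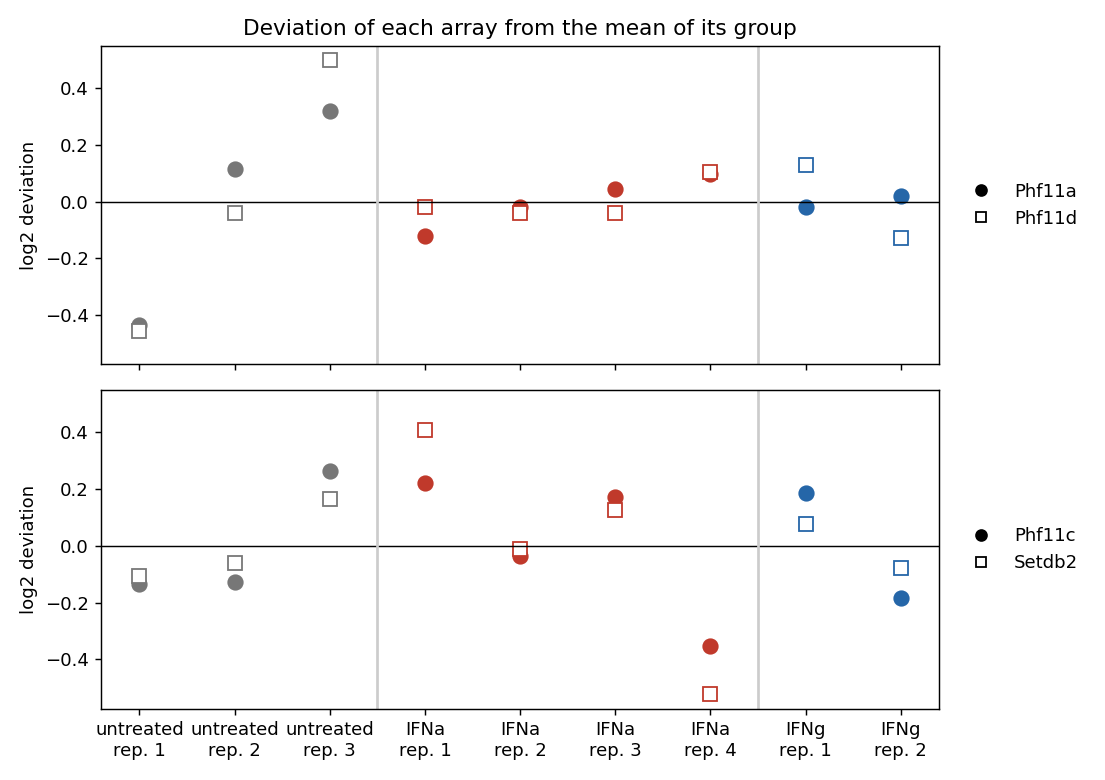
Log2 deviation of each array from the mean of its own group (colours as in the plot of intensities: untreated grey, IFNa red, IFNg blue), for Phf11a and Phf11d above and Phf11c and Setdb2 below. IFNa replicate 4 lies at -0.35 and -0.52 in the lower panel and at 0.10 for both genes in the upper panel.

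The next comparison concerned the genes around the cluster. Among the 10 genes on either side and the 1 between, 7 had a probe set of their own, and limma called 0 of them in any comparison. At an unadjusted p under 0.05 there were 2 for IFNa against untreated and 0 in the others. These were the nearest measured neighbours. Cab39l, which encodes a scaffold protein of the LKB1 kinase complex, was at 410.8, 619.9 and 772.8 in untreated arrays. It was at 861.6, 950.3, 942.9 and 629.1 after IFNa and at 730.8 and 772.8 after IFNg. The IFNa values overlapped with the untreated values, the difference was 0.52 ± 0.22 (adjusted p = 0.381, limma), and after IFNg it was 0.37 ± 0.26 (adjusted p = 0.738, limma).

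On the other side, Rcbtb1, which encodes a protein with RCC1 repeats and a BTB domain, was at 303.3, 324.6 and 417.2 in untreated arrays. It was at 570.3, 486.9, 497.7 and 342.3 after IFNa, with overlap, and at 406.8 and 396.7 after IFNg. The differences were 0.43 ± 0.18 after IFNa (adjusted p = 0.377, limma) and 0.22 ± 0.22 after IFNg. In both neighbours, as in Setdb2 and Phf11c, IFNa replicate 4 was the lowest of its group. In both, the overlap with the untreated values came from this array of narrow range alone. The other IFNa arrays lay above every untreated array. The other array of narrow range, untreated replicate 1, held the lowest untreated value in both (410.8 in Cab39l and 303.3 in Rcbtb1). The other 5, 1700129C05Rik, Gm5142, Cdadc1, Shisa2 and Atp8a2, had differences between -0.07 and 0.07 after IFNa and between -0.34 and -0.00 after IFNg. Cab39l shares its start region with Setdb2, whose difference after IFNa was 2.86.

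**Figure D4:**
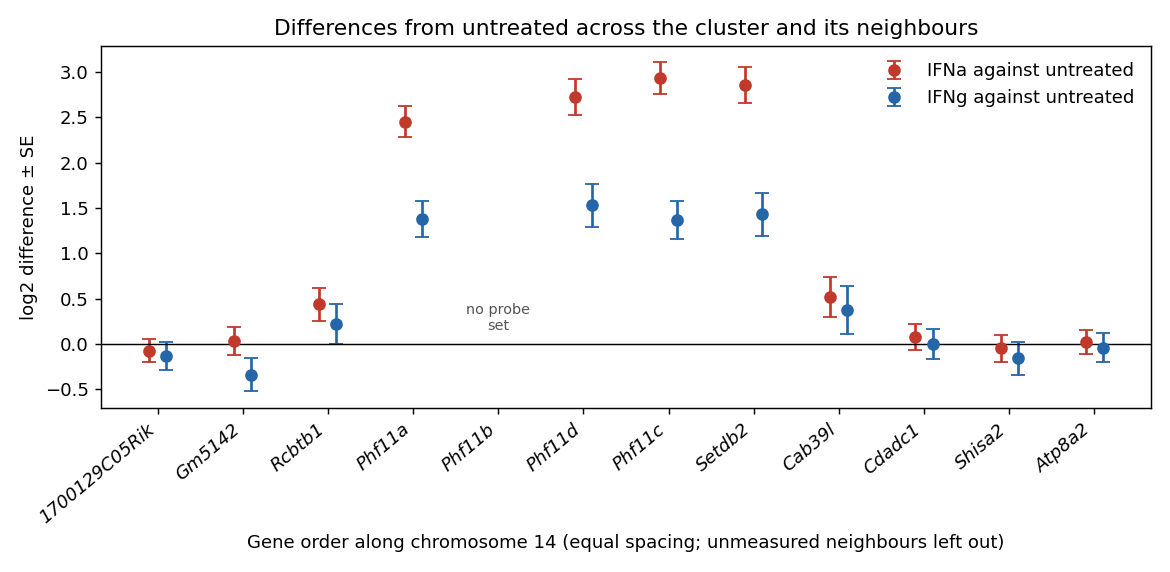
Log2 difference from untreated with its standard error, after IFNa and after IFNg, for the measured genes in their order along chromosome 14 (equal spacing, not to scale). The 4 measured members lie at 2.45 to 2.93 after IFNa; the nearest neighbours Rcbtb1 and Cab39l lie at 0.43 and 0.52, and the 5 genes further out between -0.07 and 0.07.

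Other genes of the same biochemical pathway were read from lists. Of 35 measured genes of histone H3 lysine 9 methylation (17 methyltransferases and partners, DNA methyltransferases included, 11 demethylases and 7 readers of the mark), limma called 0 in each comparison. At an unadjusted p under 0.05 there were 6 for IFNa against untreated, 1 for IFNg against untreated and 0 for IFNa against IFNg. The median differences after IFNa were -0.04, -0.13 and -0.19 in the order given. Setdb1, the closest relative of Setdb2 and not named by the rule for genes, differed by -0.30 ± 0.21 after IFNa (adjusted p = 0.742, limma) and by 0.06 ± 0.25 after IFNg (adjusted p = 0.947). Of 11 measured genes in the list of other SET domain genes, which counted Setdb1 again, 0 were called. At an unadjusted p under 0.05 there were 2 for IFNa against untreated, 0 for IFNg against untreated and 1 for IFNa against IFNg.

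Of 18 other genes named Phf, 0 rose and 1 fell after IFNa, where 0.856% of all genes were called lower. This was Phf1, which encodes a partner of the Polycomb complex PRC2. It fell by 0.78 ± 0.11 on the log2 scale (1.71-fold, adjusted p = 0.00319, limma), and its 4 IFNa arrays lay below the 3 untreated arrays. In IFNg against untreated and IFNa against IFNg limma called 0 of the 18. At an unadjusted p under 0.05 there were 5 for IFNa against untreated, 2 for IFNg against untreated and 3 for IFNa against IFNg. The median of the 18 was -0.18 after IFNa and 0.00 after IFNg.

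In the list of interferon receptors, kinases and transcription factors, 3 of 12 measured genes rose after IFNa and 3 after IFNg. Stat2, the ISGF3 subunit, rose by 3.07 ± 0.15 after IFNa and by 2.50 ± 0.18 after IFNg, and Irf1 by 2.39 ± 0.21 and 3.50 ± 0.26 (adjusted p = 3.68e-06 to 1.65e-04, limma). Jak2, a kinase of the IFNg receptor, rose by 1.10 ± 0.22 after IFNa (adjusted p = 0.0318, limma). Irf8, a transcription factor of the myeloid lineage, rose by 1.98 ± 0.18 after IFNg (adjusted p = 5.32e-04, limma) and differed by -0.09 ± 0.15 after IFNa (adjusted p = 0.93). In IFNa against IFNg, where 0.537% of all genes were called lower (106 genes, or 21 and 32 with IFNg replicate 1 or 2 left out), it differed by -2.08 ± 0.17 (adjusted p = 5.06e-04, limma). This was the reverse of the order in the 4 members. Irf9, the DNA-binding subunit of ISGF3 and not named by the rule, differed by 0.88 ± 0.22 after IFNa and did not pass (adjusted p = 0.0801, limma). The call of Jak2 ended under median centring, in a fit of only the groups compared and without any of untreated replicate 2, IFNa replicates 1, 2 and 3 or either IFNg array (adjusted p = 0.0525 to 0.0962, limma).

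Of 14 measured inflammatory genes, chosen because Setdb2 has been described as a repressor of such genes, 2 rose after IFNa. Ccl2, a monocyte chemoattractant, rose by 2.93 ± 0.34 (adjusted p = 0.00101, limma), and the cytokine gene Il6 by 2.31 ± 0.29 (adjusted p = 0.0018). After IFNg, Ccl2 rose by 2.72 ± 0.40 (adjusted p = 0.00949, limma), a call that ended without IFNg replicate 2 (0.137) and in a fit of only the groups compared (0.0962). Il6 lay higher after IFNa than after IFNg by 2.87 ± 0.33 (adjusted p = 0.00345, limma), which ended without either IFNg array (0.059 and 0.0611). Cxcl1, not named by the rule, differed by -0.37 ± 0.12 after IFNa (adjusted p = 0.207, limma) and by -0.42 ± 0.14 after IFNg (adjusted p = 0.395). The median of the 14 genes was -0.11 after IFNa and -0.14 after IFNg, against -0.02 and -0.06 for all genes.

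Correlation of log2 levels over the 9 arrays follows mainly the group means, which were known when the members were chosen. Phf11a and Setdb2 had r = 0.965 over the arrays but -0.02 as deviations from group means. The closest genes are therefore given as a description, without a test. The genes whose log2 level followed the members most closely over the 9 arrays included several known as interferon-stimulated genes. For Phf11a they were Usp18 (r = 0.998), which encodes a protease that removes ISG15, Oas3, a sensor of double-stranded RNA, and Irf7, an amplifier of type I interferon, with r of 0.996 for Oas3 and 0.994 for Irf7. The same 3 genes stood closest to Phf11d. For Phf11c they were Ppm1k (r = 0.994), which encodes a mitochondrial phosphatase of branched-chain amino acid breakdown, Sass6 (0.990), a centriole assembly gene, and Oas1b (0.990). For Setdb2 they were Ppm1k (0.992), Zup1 (0.992), which encodes a deubiquitinase, and Oas1b (0.988). Likeness of shape did not mean likeness of size. Usp18 differed from untreated by 4.67 after IFNa and 2.40 after IFNg, where Phf11a differed by 2.45 and 1.38, whereas Ppm1k differed by 2.61 and 1.07, where Phf11c differed by 2.93 and 1.37.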

How the data were processed

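Per the submitters' processing notes, arrays were summarised with Affymetrix Power Tools and RMA, versions not given. The authors deposited RMA intensity, not log-transformed, for each probe set of each array. Which arrays were normalized together is not given in the sources used here. RMA draws array distributions together, which can narrow differences. Arrays give no molecule count, and their number limits the precision.

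Log2 was taken, and a gene took the probe set that carried only its symbol and had the highest mean (19752 genes of 24922 probe sets, no filter). Group means of all 9 arrays were modelled jointly in limma 3.58.1 under R 4.3.3 (6 residual and 3.62 prior degrees of freedom). The same code was first checked on simulated arrays with known changes. P-values were two-sided and Benjamini-Hochberg adjusted over all genes, and genes were called at an adjusted p under 0.05. Errors of log2 differences are standard errors. Sequences came from RefSeq tables and were aligned with Biopython 1.88. Alternatives were another variance model, filter, normalization, sample set or probe set rule, group medians, replicate blocks and left-out arrays.

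The members and lists were chosen with earlier results of these data known. The rule named, besides the members, the nearest measured neighbours, up to 4 called genes per list and comparison, and the 3 genes of highest Pearson correlation with each member, leaving out predicted genes.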

Additional observations from a re-analysis of the deposited data

Results flagged for a closer look

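In Phf11d, IFNa replicate 4 (2496) stood apart from the other IFNa arrays, which lay between 2257 and 2289. The gap to the nearest array was 0.858 of the range of the group. Of 20 genes examined in this way in the group of 4 arrays, this was the 1 so marked, and chance marks about 1 in 20. The array is also 1 of the 2 of narrow range.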

How the results depend on the processing

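The 4 members kept a positive difference under every alternative run, with ranges of 2.20 to 3.12 after IFNa, 1.16 to 1.78 after IFNg and 0.94 to 1.78 between the interferons. Phf11a moved by more than its residual SD without the narrow arrays (2.20 after IFNa) and with a replicate block by description number (1.36 for IFNa against IFNg). The cause was not tested.

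The number of genes called after IFNa (523) was 921 under quantile normalization, 1106 without the narrow arrays, 827 and 924 with a replicate block by title or description number, and 288 to 600 with an array left out. After IFNg (267) it was 119 in a fit of only the groups compared, 503 without the narrow arrays, 699 with a replicate block by title number and 80 to 391 with an array left out. For IFNa against IFNg (193) it was 542 without the narrow arrays and 42 to 276 with an array left out. List genes called (9) were 17 under quantile normalization, 14 with a replicate block by description number and 20 without the narrow arrays (6 to 12 with an array left out). The share of calls that were higher was 67.7% after IFNa, 91.8% after IFNg and 45.1% for IFNa against IFNg. Under quantile normalization it was 54.3%, 77.5% and 58.0%. Without the narrow arrays it was 42.3% after IFNa (468 higher and 638 lower) and 71.2% after IFNg, and without untreated replicate 2 it was 90.6% after IFNa (261 higher and 27 lower). Deviations of arrays with the same number correlated between -0.211 and 0.604 for title numbers and between -0.442 and 0.106 for description numbers. Deviations from means of 2 to 4 arrays cannot decide whether these numbers paired the samples. Array weights could not be fitted, since they did not converge. No other probe set of a member was found.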
